A study of Mus musculus with 24 samples.

Results

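RNA bound to Staufen 2 (STAU2) in the embryonic mouse cortex was compared between embryonic stages E13.5 and E11.5, which are days after conception. The comparison used 6 of the 24 samples of the study, 3 immunoprecipitations at E13.5 and 3 at E11.5, all from brain cortex of C57BL/6 embryos and all made with the same antibody to STAU2. No genotype or treatment other than the stage separates the groups, and the labels give neither the number of embryos behind a library nor their sex. Of 18975 rows of the peak table, 14292 carry a gene symbol and a location in that gene (5' UTR, exon, 3' UTR or intron), over 13503 merged peaks of 7967 genes. Each row is one peak counted for one gene on one strand, and these rows were compared.

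STAU2 is an RNA-binding protein with several double-stranded RNA-binding domains. It assembles messenger RNAs with their structured stretches into granules that travel along microtubules, and it is known from neuronal dendrites and from dividing neural progenitors, where it is passed unequally to the daughter cells. In the mouse cortex the neuroepithelium of the earlier stage consists mostly of dividing progenitors with few neurons. By the later stage radial glia produce intermediate progenitors and the first deep-layer projection neurons, which extend axons. The comparison asks which RNAs are recovered with STAU2 at the later stage more or less than at the earlier one.

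Gene rows held 6000348 to 6328346 counts in the E13.5 libraries, against 5370226 to 5616147 in the E11.5 libraries, but the counts were spread differently. The 10 highest rows took 29.2% to 31.6% of them at E13.5 and 55.6% to 62.5% at E11.5, and the median row had 78 to 89 counts at E13.5, against 29 to 37 at E11.5. Levels are therefore given as counts per 1000000 counts after TMM scaling (CPM), which sets the median row near no change, and the scaled values of a library need not sum to 1000000. With scaling by the plain total of the gene rows the median log2 change moved to 1.21 for rows and 1.22 for genes, from 0.0454 and 0.0425, and 97.8% of the calls were then rises, against 54.3%. Every change below is relative to the median RNA, and a fall of a modest size becomes no change, or a rise, on the other scale. Input RNA was not analysed here, so more or less of an RNA, stronger or weaker binding, fewer cells of a type and less RNA per cell cannot be told apart. RNAs of cortical progenitors were recovered at both stages. Pax6, a transcription factor of these cells, had 112, 205 and 112 CPM at E13.5, against 58.3, 170 and 74.9 CPM at E11.5, and did not pass the test (log2 change 0.51 ± 0.52, SE; edgeR adjusted p = 0.515). Its log2 change was 1.11 without E11.5 replicate 2, which did not pass (adjusted p = 0.173), and 1.72 by gene-row totals, which did (adjusted p = 0.00555). Lhx2 and Sox2, also transcription factors of cortical progenitors, had log2 changes of -0.25 and -0.05, neither of which passed.

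Of 14101 rows tested, 1320 were higher at E13.5 (9.36%) and 1111 were lower (7.88%), together 17.2% (edgeR quasi-likelihood test, adjusted p under 0.05 over all rows). With the rows of a gene summed, 998 of 7873 genes were higher (12.7%) and 939 lower (11.9%), together 24.6%. The 3 libraries of one stage all lay above the 3 of the other in 34% of the rows. Most genes named below were picked for a small p in their list, which favours such separation. That the libraries of a named gene were separate is therefore no further support for its change. With E13.5 replicate 1 left out, 1528 rows passed, 924 higher and 604 lower. Where one gene had several called rows they nearly always moved together: of 447 genes with at least 2, 442 moved in a single direction.

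Rows called intron had more falls than rises on the TMM scale. Among 467 tested intron rows, 22 were higher at E13.5 (4.71%) and 85 lower (18.2%), with a median log2 change of -0.26. By gene-row totals the balance turned, with 154 intron rows higher and 33 lower. The 6640 rows of 3' UTRs had 680 higher and 478 lower, the 5868 exon rows 515 and 426, and the 1126 rows of 5' UTRs 103 and 122. Without E13.5 replicate 1 the intron rows had 21 higher and 56 lower. In all 543 intron rows the peak lies in an intron of the named gene in the GENCODE vM21 annotation. The other classes are looser, since 671 of 6699 rows called 3' UTR and 2035 of 5914 called exon have their centre in an intron and only touch an exon.

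Intron rows held 30.8%, 34.1% and 32.3% of gene-row counts in the E13.5 libraries, against 56.3%, 62.9% and 64.0% in the E11.5 libraries. The groups did not overlap, with means of 32.4% ± 1.65 at E13.5 and 61.1% ± 4.17 at E11.5 (SD, n = 3 each; two-sided exact permutation test, p = 0.1, the smallest that 3 against 3 libraries allow). Without the 10 highest rows, intron rows still held 5.39% ± 0.70 at E13.5, against 17.04% ± 3.48 at E11.5 (SD, n = 3 each; exact permutation p = 0.1). Counted as rows rather than as reads the difference was small: of the rows with at least 5 CPM, 1.59% ± 0.44 were intron rows at E13.5 and 2.07% ± 0.38 at E11.5 (SD, n = 3 each; exact permutation p = 0.3). The 10 highest rows of the table carried much of the difference in share.

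**Figure D1:**
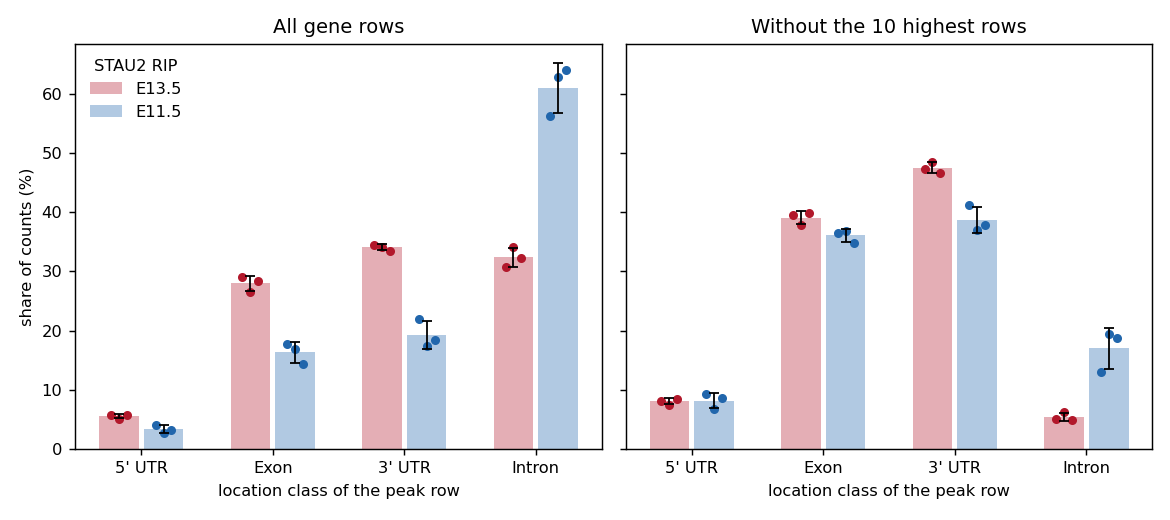
Share of gene-row counts (%, vertical axis) by location class of the peak row, for all gene rows (left) and without the 10 highest rows (right). Bars are means over 3 STAU2 libraries, E13.5 left of E11.5, points are libraries and error bars are SD. The intron share at E13.5, 30.8% to 34.1%, lies below the 56.3% to 64.0% of E11.5, and the order holds without the 10 highest rows.

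All 16 intron rows with a mean above 1000 CPM were lower at E13.5, by -1.79 to -2.79 on the log2 scale, with a median of -2.17. They held 30.1%, 32.9% and 31.4% of gene-row counts at E13.5, against 55.5%, 61.8% and 63.4% at E11.5. The most abundant was the intron row of Cmss1 (chr16:57391299-57391733, minus strand), with 77950, 121700 and 107600 CPM at E13.5, against 370800, 488500 and 484100 CPM at E11.5. Its libraries did not overlap, and the log2 change was -2.13 ± 0.34 (SE; edgeR adjusted p = 0.000147). The same peak on the plus strand is assigned to Filip1l, and that row averaged 861 CPM at E13.5 and 5960 CPM at E11.5. Kcnip1, which encodes a potassium channel regulator, had 41830, 37920 and 52670 CPM in its intron row (chr11:33754531-33755024) at E13.5, against 119400, 220500 and 153400 CPM at E11.5. Camk1d, a calcium-dependent kinase, averaged 25120 CPM at E13.5 and 98230 CPM at E11.5. Spata5 (12470 CPM at E13.5 and 74820 CPM at E11.5) and the unnamed gene model Gm19951 (13240 CPM at E13.5 and 71480 CPM at E11.5) were also among the most abundant rows. With E11.5 replicate 2 left out the log2 change was -1.84 in the Filip1l row, against -2.79 with all libraries, -1.35 in the Jarid2 row, against -2.42, and -1.67 in the Kpna1 row, against -2.31. The Tlcd4 row stood at a log2 change of -1.73 without E11.5 replicate 3, against -2.43, and the Gm19951 row at -3.03 without E13.5 replicate 2, against -2.43. The rows of Zc3h7a and Cntnap5b did not pass once E11.5 replicate 2, E13.5 replicate 1 or E13.5 replicate 3 was left out (adjusted p of 0.0557 to 0.0753 for Zc3h7a and 0.0582 to 0.0688 for Cntnap5b). On the scale of gene-row totals the falls of Cmss1, Spata5 and Gm19951 still passed, whereas Kcnip1 stood at -0.70 (adjusted p = 0.104) and Camk1d at -0.78 (adjusted p = 0.1004). Of the 16 rows 14 overlap no annotated exon of any gene on either strand. The rows in Kpna1 and Zc3h7a overlap exons of Gm15564 and Gm23935, both annotated on the opposite strand. How shared reads were counted is not given in the sources used here. Whether the reads of these 16 rows come from RNA of the named genes was not tested, so the gene names only place the peaks.

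The tilt towards lower values in rows of a high mean was not limited to introns. The mean is over the libraries of both stages, so a row can enter a high bin through its E11.5 level alone. Among rows above 1000 CPM, 9 of 36 exon rows and 6 of 27 rows of 3' UTRs were lower, with 3 and 0 higher, while below 10 CPM higher rows outnumbered lower ones in the exon class (213 against 134) and the 3' UTR class (269 against 115). Which replicate was the highest of its stage was counted in rows with a mean of at least 5 CPM. It was replicate 2 in 68.9% of 206 such intron rows at E13.5 and in 68.4% at E11.5. In the other classes it was replicate 2 in 28.6% to 36.8% of rows. Without replicate 2 of both stages, a choice made after this was seen, 63 intron rows were lower and 13 higher. What replicate 2 has to do with the intron rows was not tested.

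**Figure D2:**
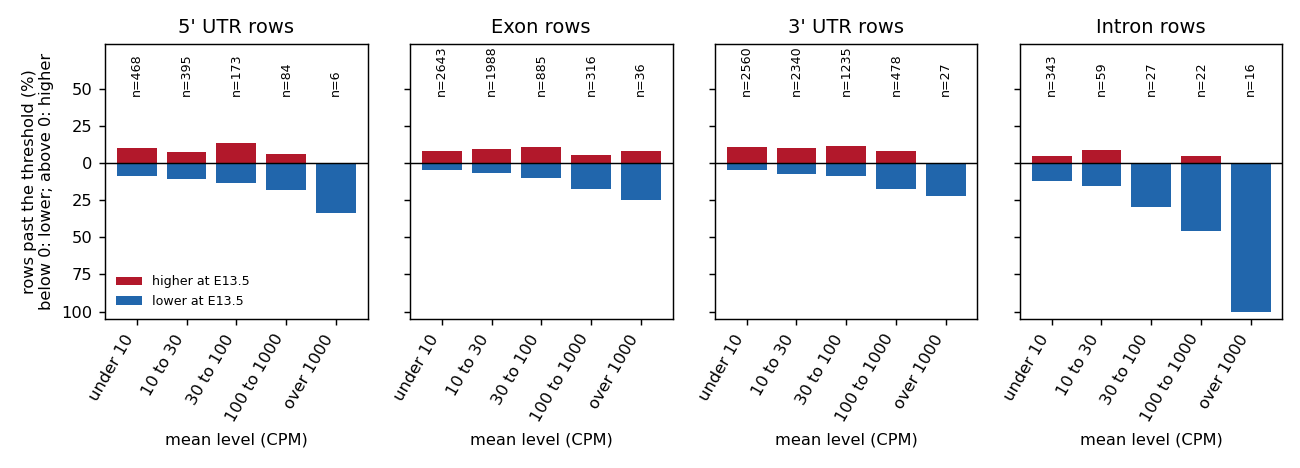
Rows past the threshold (% of tested rows of the bin) by mean level in CPM over the libraries of both stages, for each location class. Bars above 0 are rows higher at E13.5 and bars below 0 are rows lower at E13.5, with the number of rows in a bin as n. All 16 intron rows over 1000 CPM were lower, against 9 of 36 exon rows.

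Single intron rows moved in both directions. Among those that rose, Cdh8, a neuronal cadherin, had 45.8, 30.7 and 36.4 CPM at E13.5, against 11.8, 12.5 and 8.65 CPM at E11.5 (log2 change 1.77 ± 0.38, SE; edgeR adjusted p = 0.0024). Grm8, a metabotropic glutamate receptor, had 142, 82.8 and 255 CPM at E13.5, against 50.4, 44.5 and 47.0 CPM at E11.5, and did not pass without E13.5 replicate 3 (1.25, adjusted p = 0.0825). Nr1d1, a nuclear receptor of the circadian clock, averaged 28.4 ± 22.2 CPM at E13.5 and 8.30 ± 5.34 CPM at E11.5 (SD, n = 3 each), and it no longer passed with E13.5 replicate 2 left out (0.89, adjusted p = 0.301), nor with E11.5 replicate 2 (adjusted p = 0.0625) or E11.5 replicate 3 (adjusted p = 0.158) left out. Among those that fell, Rsph3a, named for a radial spoke protein of cilia, had 34.0, 108 and 34.0 CPM at E13.5, against 270, 947 and 253 CPM at E11.5, with log2 changes of -3.06 in all libraries and -2.16 without E11.5 replicate 2 and -3.86 without E13.5 replicate 2. Mphosph8, a reader of silent chromatin, had 54.2, 174 and 89.0 CPM at E13.5, against 272, 1788 and 344 CPM at E11.5. It changed by -2.92, and with E11.5 replicate 2 left out it did not pass (-1.54, adjusted p = 0.0567). Vwa3a changed by -2.92 and by -1.62 without the same library (adjusted p = 0.0372). In all 3 fallers replicate 2 was the highest library of both stages.

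Transcription factors of cortical neurons were higher at E13.5. Of 22 measured, 15 rose and 3 fell, with a median log2 change of 1.26 beside 0.0425 over all genes. Neurod6, a factor of postmitotic pyramidal neurons, had 921, 649 and 689 CPM at E13.5, against 12.9, 25.4 and 18.9 CPM at E11.5. The lowest E13.5 library was more than an order of magnitude above the highest of E11.5, and the change was 5.31 ± 0.39 (SE; edgeR adjusted p = 2.77e-07). Its peak lies in the coding exon (chr6:55679199-55679515, minus strand). The nuclear factor I genes, which promote neuronal and later glial differentiation, rose together. Nfix had 665, 491 and 770 CPM at E13.5, against 16.1, 20.5 and 32.4 CPM at E11.5, Nfib had 1479, 1457 and 1779 CPM at E13.5, against 114, 184 and 122 CPM at E11.5, and Nfia averaged 359 ± 103 CPM at E13.5 and 52.7 ± 19.3 CPM at E11.5 (SD, n = 3 each). None of these groups overlapped, which the choice of genes by small p favours. Foxp1, a forkhead repressor, went the other way, with 143, 133 and 168 CPM at E13.5, against 324, 452 and 323 CPM at E11.5 (-1.31 ± 0.23, SE), a fall that the scale of gene-row totals ends (-0.11, adjusted p = 0.687). Tbr1, a factor of deep-layer neurons, had 86.4, 120 and 143 CPM at E13.5, against 58.3, 70.5 and 49.0 CPM at E11.5, a rise of 0.97 ± 0.25 (SE; edgeR adjusted p = 0.0099).

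Genes of intermediate progenitors and of the proneural programme rose as well, 7 of 9 measured, with 1 lower and a median of 1.27. Gadd45g, a stress and cell-cycle-exit gene, had 96.8, 74.7 and 110 CPM at E13.5, against 17.9, 13.7 and 20.1 CPM at E11.5. Dll3, a Notch ligand that acts within its own cell, had 54.0, 49.9 and 47.9 CPM at E13.5, against 14.9, 8.72 and 11.6 CPM at E11.5. Neurod1 averaged 49.2 ± 18.9 CPM at E13.5 and 10.9 ± 1.05 CPM at E11.5 (SD, n = 3 each). Eomes, which marks intermediate progenitors, had 135, 157 and 113 CPM at E13.5, against 68.7, 50.4 and 53.3 CPM at E11.5 (1.23 ± 0.26, SE; edgeR adjusted p = 0.00304). All libraries of E13.5 exceeded those of E11.5 for each of these genes, which the choice of genes favours. Ebf2 was the member that fell, to 6.42 ± 2.12 CPM at E13.5, against 30.04 ± 14.14 CPM at E11.5 (SD, n = 3 each), and it also marks Cajal-Retzius cells. Progenitor genes as a list showed no common direction, with 4 of 17 higher, 3 lower and a median of -0.03. Emx1, a dorsal homeobox gene, had 53.5, 40.8 and 95.8 CPM at E13.5, against 15.84, 18.96 and 11.96 CPM at E11.5, and the radial glia lipid carrier Fabp7 had 241, 379 and 288 CPM at E13.5, against 125, 111 and 97.6 CPM at E11.5. Gli3, the dorsal Hedgehog effector, fell to 50.1, 57.4 and 79.95 CPM at E13.5, against 163, 204 and 229 CPM at E11.5, and Tcf7l2, a Wnt effector, averaged 17.3 ± 7.60 CPM at E13.5 and 55.2 ± 10.1 CPM at E11.5 (SD, n = 3 each). Tcf7l2 did not pass with peaks of a score at or above the median (-0.94, adjusted p = 0.251). Neither fall passed on the scale of gene-row totals (-0.46, adjusted p = 0.151, and -0.51, adjusted p = 0.194).

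**Figure D3:**
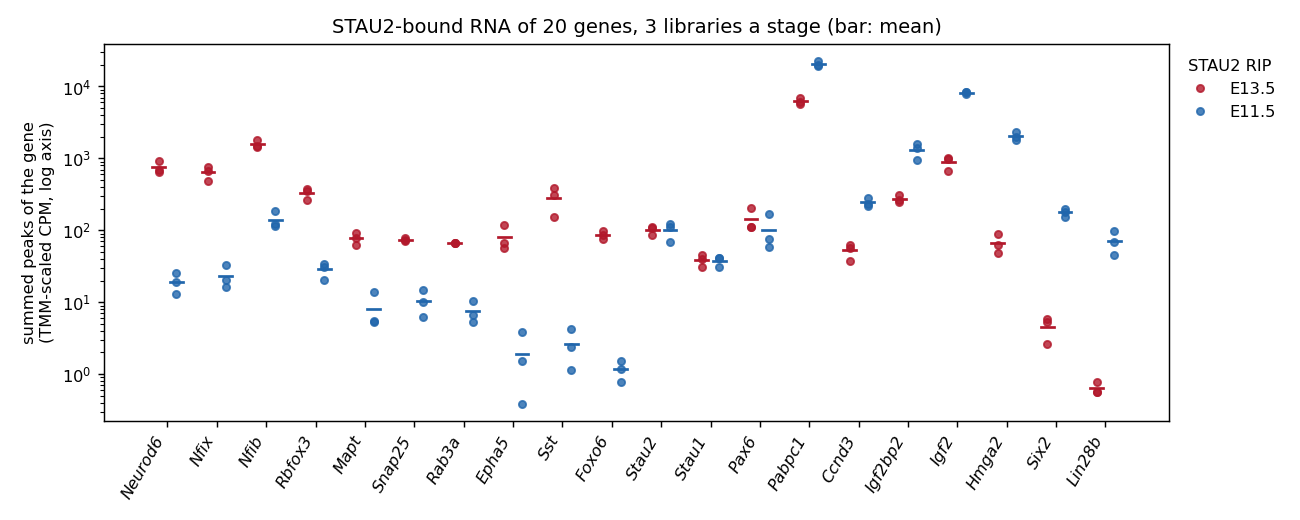
Summed peaks of 20 genes (TMM-scaled CPM, log axis), with one point per STAU2 library and a bar at the mean of 3, E13.5 left of E11.5. Neurod6, Nfix and Foxo6 lie higher at E13.5, and Hmga2, Six2 and Lin28b lower, without overlap; the libraries of Stau2, Stau1 and Pax6 overlap.

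Among genes of the neuronal cytoskeleton 14 of 27 rose and 0 fell, with a median of 1.06. Mapt, the axonal microtubule protein tau, had 62.8, 92.7 and 78.5 CPM at E13.5, against 5.38, 13.7 and 5.40 CPM at E11.5 (3.27 ± 0.37, SE; edgeR adjusted p = 2.02e-05). The collapsin response mediators, which couple guidance signals to microtubules, followed: Dpysl3 had 958, 1185 and 657 CPM at E13.5, against 199, 192 and 159 CPM at E11.5, and Crmp1 had 314, 337 and 373 CPM at E13.5, against 106, 128 and 104 CPM at E11.5. Stmn4, a tubulin-binding stathmin, was even across libraries, with 62.0, 54.8 and 58.9 CPM at E13.5, against 19.4, 18.6 and 19.3 CPM at E11.5. The groups of all these genes were separate, which their choice by small p favours. Among molecular motors 10 of 40 kinesin and dynein genes were higher (25%) and 1 lower (2.5%), beside 12.7% and 11.9% over all genes. Their median was 0.23. Kif21b, a kinesin of dendrites, had 71.4, 84.6 and 75.9 CPM at E13.5, against 11.95, 12.51 and 7.72 CPM at E11.5, and Dync1i1, a neuronal dynein chain, had 9.03, 9.59 and 8.96 CPM at E13.5, against 1.49, 2.28 and 0.77 CPM at E11.5. The kinesin light chains Klc2 and Klc4 rose by 1.45 ± 0.33 and 1.22 ± 0.29 on the log2 scale (SE).

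Of 20 synaptic vesicle and release genes 16 rose and 0 fell, with a median of 1.61. Snap25, a membrane fusion protein, had 73.5, 77.6 and 71.7 CPM at E13.5, against 10.2, 14.8 and 6.18 CPM at E11.5, and the vesicle GTPase Rab3a had 66.4, 67.1 and 65.7 CPM at E13.5, against 10.46, 5.31 and 6.56 CPM at E11.5. Syn2, a vesicle coat protein, had 7.92, 7.15 and 6.88 CPM at E13.5 and a single count in the E11.5 libraries, a ratio of 62.7 (95% interval of counting 11.1 to 2491). For Ppfia2, which organises release sites, 2 counts at E11.5 gave a ratio of 27.6 (7.5 to 230). Summed over the list, levels were 1018 to 1064 CPM at E13.5, against 311 to 358 CPM at E11.5.

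Among postsynaptic genes 6 of 16 were higher and 1 lower, with a median of 0.51. Shank1, a scaffold of excitatory synapses, had 37.1, 50.4 and 51.1 CPM at E13.5, against 10.2, 14.03 and 11.2 CPM at E11.5, and Nlgn3, an adhesion protein, averaged 57.6 ± 22.4 CPM at E13.5 and 13.98 ± 6.76 CPM at E11.5 (SD, n = 3 each). Camk2b, a synaptic kinase, had 12.2, 9.01 and 8.44 CPM at E13.5 and 1 count at E11.5 (ratio 84.6, interval 15.02 to 3357), and the scaffold Dlg2 had 2 counts there (ratio 12.1, interval 3.22 to 103). Glutamate and GABA receptor genes had 6 of 11 higher, 0 lower and a median of 1.72. Gabbr1, a subunit of the metabotropic GABA receptor, had 133, 140 and 160 CPM at E13.5, against 41.5, 49.7 and 40.1 CPM at E11.5, and Grik5, a kainate receptor subunit, had 140, 102 and 242 CPM at E13.5, against 38.6, 44.7 and 54.0 CPM at E11.5. Gria3 and Grm2, an AMPA and a metabotropic glutamate receptor gene, averaged 3.45 ± 0.85 and 1.70 ± 0.83 CPM at E13.5 (SD, n = 3 each), and no E11.5 library reached 0.8 CPM for either. Without replicate 2 of both stages Gria3 did not pass (adjusted p = 0.0723). Grm2 had 1 count at E11.5, which gives a ratio of 14.5 (2.45 to 588).

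Voltage-gated channel genes had 13 of 34 higher, 3 lower and a median of 0.89. Kcng1, a modulatory potassium channel subunit, had 38.8, 21.03 and 42.7 CPM at E13.5, against 4.18, 3.79 and 1.93 CPM at E11.5, and Kcnj11, an ATP-sensitive potassium channel, had 20.4, 16.17 and 22.6 CPM at E13.5, against 0.30, 2.28 and 0.77 CPM at E11.5 (4.19, or 5.23 without E11.5 replicate 2). Kcnq3, a channel subunit of the M-current, had 0 counts in 2 of 3 E11.5 libraries, and its fitted log2 change of 4.84 became 10.06 without E11.5 replicate 3, a value against counts of 0 that is no bound. Cacna1e, a calcium channel subunit, averaged 12.3 ± 5.41 CPM at E13.5 and 0.85 ± 0.90 CPM at E11.5 (SD, n = 3 each; log2 change 3.71, or 4.93 without E11.5 replicate 1). Kcnip1 counts among the channel genes that fell because its intron row outweighs its others.

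Axon guidance ligands and receptors had 20 of 37 higher, 2 lower and a median of 1.16. Epha5, an ephrin receptor, had 119, 66.0 and 56.3 CPM at E13.5, against 3.88, 1.52 and 0.39 CPM at E11.5 (5.28 ± 0.50, SE, and 6.37 without E11.5 replicate 1). Dscaml1, an adhesion molecule related to Dscam, had 9.17, 14.3 and 18.3 CPM at E13.5, against 0.90, 1.52 and 0.77 CPM at E11.5. Plxna2, a semaphorin receptor subunit, had 22.6, 23.2 and 43.2 CPM at E13.5, against 1.195, 1.90 and 5.40 CPM at E11.5 (3.43, and 4.28 without E11.5 replicate 3). Dscam itself had 14.9, 21.03 and 15.7 CPM at E13.5 and 2 counts at E11.5 (ratio 73.4, interval 20.2 to 609). Cadherins and protocadherins had 9 of 20 higher, 1 lower and a median of 0.68. Cdh13, a cadherin without a cytoplasmic tail, had 28.8, 32.9 and 24.3 CPM at E13.5, against 1.195, 3.41 and 1.93 CPM at E11.5. Celsr1, a planar polarity cadherin, averaged 22.4 ± 11.4 CPM at E13.5 and 1.55 ± 0.35 CPM at E11.5, and Dchs1, a large cadherin of the same pathway, averaged 26.1 ± 9.90 CPM at E13.5 and 5.81 ± 1.502 CPM at E11.5 (SD, n = 3 each). The libraries of the 2 stages were separate for every guidance and cadherin gene named here, but the genes were named for a small p, which favours this.

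Single rows were ranked by location among called rows of named genes with non-overlapping libraries and a mean of at least 10 counts at the lower stage. Among 5' UTR rows the largest rises in this ranking were of Rbfox3, Nfib and Mapt. Among exon rows they were of Ttr, Neurod6 and Sez6, and among 3' UTR rows of L1cam, Nfix and Gsg1l. Rows outside the ranking could change more, such as a 3' UTR row of Trim67 (log2 change 6.94). Ttr, the carrier of thyroid hormone and retinol that the choroid plexus secretes, had 299, 368 and 361 CPM in its exon row at E13.5, against 5.30, 3.799 and 3.76 CPM at E11.5 (6.30 ± 0.48, SE; edgeR adjusted p = 2.2e-08). It averaged 63.6 CPM at E15.5 and 1.30 CPM at E17.5. Sez6, a membrane protein of dendrites, had 206, 162 and 244 CPM in an exon row at E13.5, against 3.54, 6.08 and 6.77 CPM at E11.5. L1cam, the axonal adhesion molecule, had 267, 450 and 166 CPM at E13.5, against 11.2, 9.50 and 7.52 CPM at E11.5, and Gsg1l, an auxiliary subunit of AMPA receptors, had 73.5, 83.6 and 86.4 CPM at E13.5, against 4.42, 4.18 and 3.38 CPM at E11.5. The 5' UTR row of Mapt had 51.1, 80.4 and 60.3 CPM at E13.5, against 3.83, 11.8 and 5.26 CPM at E11.5, and its log2 change was 3.21, or 3.82 without E11.5 replicate 2. The same library moved the 5' UTR rows of Rbfox3 (3.82, and 4.52 without it) and Nfib (3.27, and 3.86 without it).

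RNA-binding proteins of neurons and RNA transport were mixed, with 8 of 27 higher (29.6%) and 4 lower (14.8%), beside 12.7% and 11.9% over all genes. Their median was 0.43 (0.39 with genes that had no E11.5 count set at their lower bound). Without replicate 2 of both stages 6 were higher and 1 lower. Rbfox3, a neuronal splicing factor also known as the antigen NeuN, had 351, 263 and 372 CPM over 9 peaks at E13.5, against 20.6, 34.1 and 31.3 CPM at E11.5. Srrm4, which activates neuronal microexons, had 146, 137 and 115 CPM at E13.5, against 54.7, 45.5 and 42.1 CPM at E11.5, and Celf3 had 66.0, 75.3 and 85.5 CPM at E13.5, against 22.1, 28.8 and 34.0 CPM at E11.5. Nova1, another neuronal splicing factor, was lower, with 76.1, 89.1 and 57.2 CPM at E13.5, against 258, 189 and 306 CPM at E11.5 (-1.76 ± 0.28, SE; not passed by gene-row totals, -0.58, adjusted p = 0.0821). The RNA of the bait itself did not pass on the TMM scale. Stau2 had 86.7, 112 and 108 CPM over 6 peaks at E13.5, against 110, 123 and 67.9 CPM at E11.5 (0.03 ± 0.26, SE; edgeR adjusted p = 0.949), and its paralog Stau1 had 30.7, 45.5 and 39.6 CPM at E13.5, against 30.5, 41.3 and 40.9 CPM at E11.5 (0.04 ± 0.28, SE; adjusted p = 0.936). The sign of both estimates turned when single libraries were left out, and by gene-row totals both passed, near the median of all genes on that scale, with Stau2 at 1.20 and Stau1 at 1.24 (adjusted p = 0.00155 each).

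Genes that time early development fell. Of 7 measured, 6 fell and 0 rose, with a median of -2.05, and the median stayed negative at -0.86 on the scale of gene-row totals, where 4 fell and 1 rose. LIN28 proteins block the maturation of let-7 microRNAs, which repress HMGA and IGF2BP messages. Lin28b had 0.56, 0.57 and 0.78 CPM at E13.5, against 45.4, 68.3 and 98.0 CPM at E11.5 (-6.74 ± 0.48, SE; edgeR adjusted p = 2.77e-07). Hmga2, a chromatin architectural protein, had 49.0, 62.0 and 88.9 CPM at E13.5, against 2013, 1777 and 2312 CPM at E11.5, and its 3 peaks fell together, its 5' UTR row by 5.12 and a 3' UTR row by 5.10 on the log2 scale. Igf2bp2, an RNA-binding protein, had 267, 251 and 309 CPM at E13.5, against 943, 1570 and 1383 CPM at E11.5, and Hmga1 had 106, 92.9 and 92.0 CPM at E13.5, against 361, 382 and 468 CPM at E11.5. No library of E13.5 reached the lowest of E11.5 for any of these genes, which their choice by small p favours.

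Sites for let-7 lie inside several of these peaks. The mature let-7 sequences are printed with their seed, bases 2 to 8, in capitals (RefSeq, GRCm38.p6), and all 9 family members in that table share the seed GAGGUAG. Its match, CTACCTC, is in capitals in the peak sites, which are given on the strand of the RNA (mm10).
mmu-let-7a-5p: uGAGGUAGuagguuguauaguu
mmu-let-7b-5p: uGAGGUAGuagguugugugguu
mmu-let-7i-5p: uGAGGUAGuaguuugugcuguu
Hmga2, chr10:120361681-120361710: caaaacacactaCTACCTCttaagtcccag
Hmga2, chr10:120362977-120363006: cactcctcaataCTACCTCtgaatgctaca
Igf2bp2, chr16:22059463-22059492: cacaaataaaagCTACCTCaggtgtttttt
Hmga1, chr17:27563280-27563309: tctgttcacaaaCTACCTCtggacggttgt
Dll3, chr7:28293816-28293845: ggtgtccaatctCTACCTCcccctaccgac
The first 4 sites lie in rows that fell, by 5.1, 4.57, 2.32 and 2.04 on the log2 scale in the order printed, and that of Dll3 lies in a row that rose by 1.94. They were chosen after their values were seen. Over whole 3' UTR peaks that lie inside a single exon, a match was present in 17 of 413 higher rows (4.12%) and 12 of 300 lower rows (4%), beside 107 of 3868 tested rows (2.77%). Among the 107 rows with a match the median log2 change was 0.0678, beside 0.0154 without one.

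Insulin-like growth factor signalling was split. Igf2, the fetal growth factor, had 1024, 972 and 668 CPM at E13.5, against 8262, 7886 and 8468 CPM at E11.5, and Igf1 had 2.92, 3.15 and 5.45 CPM at E13.5, against 70.5, 76.2 and 85.7 CPM at E11.5. Of the binding proteins that modulate these ligands, Igfbp4 fell to 54.2, 60.1 and 44.5 CPM at E13.5, against 194, 94.4 and 168 CPM at E11.5 (-1.52 ± 0.27, SE; -0.37, adjusted p = 0.276, by gene-row totals), while Igfbp7 had 124, 48.8 and 95.8 CPM at E13.5, against 5.68, 5.31 and 5.79 CPM at E11.5. In all, 4 of 8 fell and 2 rose, with a median of -0.81 that became 0.40 by gene-row totals. The imprinted ligand Dlk1 fell too, to 1.39 ± 0.85 CPM at E13.5, against 11.97 ± 3.47 CPM at E11.5 (SD, n = 3 each; -3.08, or -3.68 without E13.5 replicate 3). Igf1 and Igf2 are also made by mesenchyme and meninges, whose genes are given further on.

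Of 28 ribosomal proteins 13 were lower, 0 were higher and 15 did not pass, with a median of -0.93, which turned to 0.26 by gene-row totals, with 4 then higher and 2 lower. Without replicate 2 of both stages 5 were lower. Rpl12, of the large subunit, had 851, 501 and 732 CPM at E13.5, against 2891, 2676 and 3473 CPM at E11.5, and Rps27l, a p53-responsive relative of a small-subunit protein, had 41.4, 40.1 and 41.5 CPM at E13.5, against 148, 156 and 189 CPM at E11.5. Rplp1 averaged 925 ± 360 CPM at E13.5 and 3744 ± 669 CPM at E11.5, and Rps4x averaged 252 ± 70.2 CPM at E13.5 and 713 ± 111 CPM at E11.5 (SD, n = 3 each), but neither passed by gene-row totals (adjusted p = 0.0796 and 0.409). Ribosomal protein genes have many near-identical pseudogenes, and how shared reads were counted is not given in the sources used here. Summed, the family held 15350 to 22610 CPM at E13.5, against 34630 to 38810 CPM at E11.5.

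Among translation factors 7 of 41 fell (17.1%) and 2 rose (4.88%), beside 11.9% and 12.7% over all genes. Their median of -0.11 became 1.08 by gene-row totals. Pabpc1, the cytoplasmic poly(A)-binding protein, had 6828, 5797 and 6072 CPM at E13.5, against 19300, 19980 and 22540 CPM at E11.5, and Pabpc4 had 153, 144 and 140 CPM at E13.5, against 627, 574 and 487 CPM at E11.5. The translational repressors Eif4ebp1 and Eif4ebp2 fell by 2.61 ± 0.32 and 1.69 ± 0.34 on the log2 scale (SE). Pabpc1 and Eif4ebp2 did not pass by gene-row totals (adjusted p = 0.0812 and 0.196), while Pabpc4 and Eif4ebp1 did. Genes of mitosis and replication had 17 of 81 lower (21%) and 2 higher (2.47%), with a median of -0.36 that became 0.83 by gene-row totals. Ccnd3, a G1 cyclin, had 56.4, 37.9 and 63.2 CPM at E13.5, against 235, 218 and 284 CPM at E11.5, and it fell on both scales. E2f4, a transcription factor of quiescence, averaged 74.1 ± 8.51 CPM at E13.5 and 242 ± 50.9 CPM at E11.5, and Cdc25b, a phosphatase that starts mitosis, averaged 42.1 ± 2.53 CPM at E13.5 and 104 ± 4.77 CPM at E11.5 (SD, n = 3 each), and both lost their calls by gene-row totals (adjusted p = 0.1 and 0.658). Ncapd2, a condensin subunit, rose, with 152, 144 and 127 CPM at E13.5, against 50.2, 47.0 and 54.8 CPM at E11.5.

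In the Notch pathway, which keeps progenitors from differentiating, 6 of 15 genes rose and 1 fell, with a median of 0.40. Notch2, a receptor, had 45.6, 43.2 and 49.5 CPM at E13.5, against 5.98, 6.07 and 6.18 CPM at E11.5. Ncstn, a subunit of the secretase that releases Notch, had 102, 93.6 and 80.7 CPM at E13.5, against 16.7, 22.4 and 34.4 CPM at E11.5. Hedgehog genes had 1 of 8 higher (12.5%) and 2 lower (25%), beside 12.7% and 11.9% over all genes. The Hedgehog co-receptor Cdon rose to 88.3, 185 and 119 CPM at E13.5, against 46.3, 70.9 and 43.6 CPM at E11.5. Wnt genes had 1 of 14 higher (7.14%) and 2 lower (14.3%), with Dkk3, a secreted modulator, at 23.1, 19.9 and 27.8 CPM at E13.5, against 7.77, 2.65 and 3.47 CPM at E11.5 (2.31, or 2.94 without E11.5 replicate 1). The medians of these lists, -0.49 for Hedgehog and -0.33 for Wnt, became 0.66 and 0.87 by gene-row totals. In the TGF-beta and BMP group 3 of 16 genes rose (18.8%) and 4 fell (25%), with a median of -0.12. Calls this few give no direction for the Hedgehog, Wnt or TGF-beta and BMP lists. Tgfb3, a ligand, rose by 2.48 ± 0.42 and the receptor Acvr1 by 2.41 ± 0.49 (log2, SE), whereas the receptor Tgfbr1 averaged 0.38 CPM at E13.5 and 5.82 CPM at E11.5 and the ligand Bmp4 averaged 8.99 CPM at E13.5 and 29.96 CPM at E11.5, both lower. Among effectors of FGF signalling the factor Etv1 fell to 2.08, 3.86 and 2.86 CPM at E13.5, against 12.9, 14.4 and 12.7 CPM at E11.5.

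Chromatin regulators of the Polycomb and trithorax groups had 5 of 21 higher (23.8%) and 2 lower (9.52%), beside 12.7% and 11.9% over all genes. Their median was 0.10. Auts2, a Polycomb-associated protein of neurons, had 558, 526 and 669 CPM over 9 peaks at E13.5, against 183, 200 and 176 CPM at E11.5, and Kmt2c, a histone methyltransferase, had 134, 140 and 111 CPM at E13.5, against 49.9, 56.9 and 65.6 CPM at E11.5. Kmt2c did not pass with peaks of a score at or above the median (0.93, adjusted p = 0.223), and without replicate 2 of both stages 2 of these regulators were higher. Among Sox, Pou, Lhx and Fox factors 8 of 31 were higher (25.8%), 4 lower (12.9%) and 19 not passed, with a median of -0.21. Fewer were higher without replicate 2 of both stages. Of the risers, Foxo6, a forkhead factor of the developing hippocampus and cortex, had 85.4, 97.0 and 75.4 CPM at E13.5, against 1.195, 1.52 and 0.77 CPM at E11.5 (6.18 ± 0.40, SE; edgeR adjusted p = 1.29e-07), and Sox5, a factor of deep-layer neurons, averaged 148 ± 10.3 CPM at E13.5 and 54.5 ± 8.85 CPM at E11.5 (SD, n = 3 each). Several large families had a lower share of calls than the 12.7% and 11.9% over all genes: 1 of 62 genes of the mitochondrial respiratory chain rose and 4 fell, 4 of 51 splicing factors rose and 2 fell, and 10 of 152 zinc finger genes of the Zfp series rose and 14 fell. Heat shock proteins and their partners had 3 of 40 higher and 7 lower. No row of a Hox gene was among those compared. Families were taken by patterns in gene symbols, which also catch a few relatives by name.

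**Figure D4:**
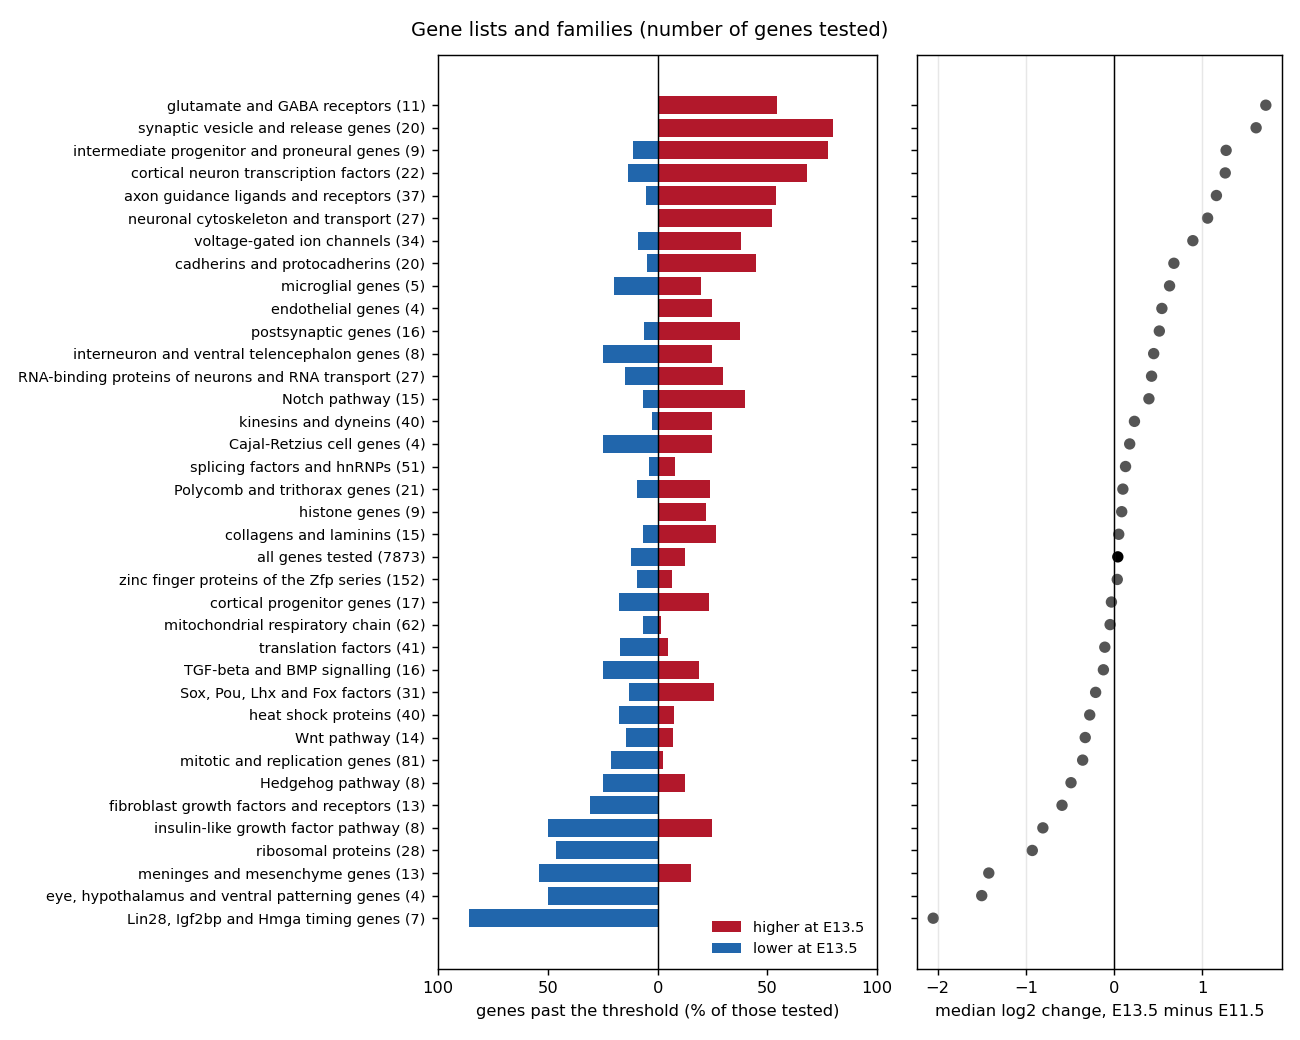
Share of the genes of each list past the threshold (%, left; risers right of 0, fallers left of 0) and the median log2 change of the list (right), with the number of genes tested in brackets, for lists with at least 4 genes tested. Synaptic vesicle genes had 16 of 20 risers and timing genes 6 of 7 fallers, beside 12.7% risers and 11.9% fallers over all genes.

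RNAs of cells outside the cortical neuroepithelium also differed between the stages. Of 13 measured genes of meninges and mesenchyme 7 fell and 2 rose, with a median of -1.42, or -0.29 by gene-row totals, and their summed level was 389 to 413 CPM at E13.5, against 776 to 918 CPM at E11.5. Six2, a homeobox gene of head mesenchyme, had 5.28, 5.87 and 2.60 CPM at E13.5, against 201, 156 and 183 CPM at E11.5, Twist1 averaged 3.98 ± 2.69 CPM at E13.5 and 37.1 ± 7.77 CPM at E11.5, and Crabp1, a retinoic acid carrier, averaged 23.7 ± 3.69 CPM at E13.5 and 233 ± 51.5 CPM at E11.5 (SD, n = 3 each). Without E13.5 replicate 3 the log2 change of Twist1 was -3.86, against -3.21. Dcn, a matrix proteoglycan of the same tissue, went the opposite way, with 48.6, 34.5 and 46.5 CPM at E13.5, against 2.69, 3.03 and 4.25 CPM at E11.5. Of the list's other defining markers Foxd1, Pdgfra and 5 more had no gene row. Of 3 erythroid genes Ermap and Alas2 fell and Ank1 did not pass (-0.64, adjusted p = 0.684), Ermap to 0.45 ± 0.32 CPM at E13.5, against 18.6 ± 4.26 CPM at E11.5 (-5.29, or -5.94 without E13.5 replicate 3), and Alas2 to 0.51 ± 0.29 CPM at E13.5, against 12.4 ± 3.91 CPM at E11.5 (SD, n = 3 each), while no globin gene had a gene row. The summed level of the erythroid genes overlapped between the stages, at 4.45 to 95.4 CPM at E13.5 and 54.4 to 109 CPM at E11.5. Six3 and Otx2, homeobox genes of eye and hypothalamus, fell as well, Six3 to 0.69, 1.72 and 1.30 CPM at E13.5, against 36.8, 40.2 and 51.3 CPM at E11.5, and Otx2 to 1.81 ± 0.80 CPM at E13.5, against 9.54 ± 3.36 CPM at E11.5 (SD, n = 3 each; adjusted p = 0.0548 by gene-row totals). Summed, that list stood at 11.53 to 28.5 CPM at E13.5, against 60.1 to 70.5 CPM at E11.5. The part of these tissues in the fall of Igf1, Igf2, Dlk1 or the other genes above was not tested.

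Of 8 genes of interneurons and the ventral telencephalon 2 rose, 2 fell and 4 did not pass (25% each way, beside 12.7% risers and 11.9% fallers over all genes). Sst, the peptide somatostatin, had 387, 151 and 306 CPM at E13.5, against 2.39, 1.14 and 4.25 CPM at E11.5 (6.76 ± 0.60, SE; edgeR adjusted p = 2.08e-06). Npy, a neuropeptide, had 11.4, 8.87 and 8.70 CPM at E13.5 and a single count at E11.5 (ratio 82.7, interval 14.7 to 3280). Dlx2 and Dlx5, homeobox genes of the ventral telencephalon, fell, Dlx2 to 16.1, 24.04 and 21.03 CPM at E13.5, against 109, 128 and 90.7 CPM at E11.5, and Dlx5 to 15.3 ± 0.97 CPM at E13.5, against 37.3 ± 5.36 CPM at E11.5 (SD, n = 3 each; -0.08, adjusted p = 0.795, by gene-row totals). Reln, which Cajal-Retzius cells secrete, had 38.6, 44.9 and 42.6 CPM at E13.5, against 5.08, 1.14 and 0.77 CPM at E11.5 (log2 change 4.08, or 5.43 without E11.5 replicate 1), whereas Calb2 of the same cells did not pass (-0.14). Of 4 endothelial genes the lipid transporter Mfsd2a rose, to 38.3 ± 4.41 CPM at E13.5, against 8.22 ± 0.66 CPM at E11.5 (SD, n = 3 each). Of 5 microglial genes 1 rose, 1 fell and 3 did not pass (20% each way). The riser, P2ry12, changed by 2.40 ± 0.62 (log2, SE), or by 3.47 without E11.5 replicate 3. It did not pass without E11.5 replicate 1 (edgeR adjusted p = 0.055). None of the 11 genes of surface ectoderm had a gene row.

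Peaks of one gene could be compared with the gene as a whole in 9645 rows of 3414 genes. In this test 12 rows moved up (0.124%) and 19 down (0.197%) relative to the summed peaks of their gene, in 28 genes, and 11 of the 31 were intron rows (2 up and 9 down of 262 tested). Without rows called intron 6 were left, and 16 without E11.5 replicate 3. Nfib, whose exon and 5' UTR rows rose, carries an intron row (chr4:82308909-82309225) with 2.09, 4.20 and 2.43 CPM at E13.5, against 0.88, 8.74 and 4.14 CPM at E11.5. That row did not change by itself (-0.63, adjusted p = 0.564) and stood -4.13 from its gene (edgeR diffSpliceDGE adjusted p = 4.41e-05; -3.50 without E11.5 replicate 2). The Setbp1 intron row had 0.97, 1.16 and 1.28 CPM at E13.5, against 9.43, 17.47 and 9.02 CPM at E11.5, a relative change of -3.79. Crebbp, a histone acetyltransferase, had 2.65, 1.88 and 0.51 CPM in an intron row at E13.5 (chr16:4165973-4166117), against 8.84, 5.32 and 12.4 CPM at E11.5, while its 7 exon rows had log2 changes above 0. Gphn, the scaffold gephyrin of inhibitory synapses, had 4203 ± 569 CPM in its intron row at E13.5 and 21480 ± 4712 CPM at E11.5, beside 11.2 ± 4.78 CPM at E13.5 and 10.9 ± 3.31 CPM at E11.5 in its 3' UTR row (SD, n = 3 each), so that the 3' UTR row was 2.38 above the gene.

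Kcnip1 had rows that moved in opposite directions. Its exon row had 20.2, 12.3 and 12.7 CPM at E13.5, against 6.78, 5.32 and 4.89 CPM at E11.5, and its 3' UTR row had 57.2, 24.01 and 40.02 CPM at E13.5, against 14.7, 22.4 and 16.9 CPM at E11.5, rises of 1.40 and 1.17 on the log2 scale, while its intron row fell by 1.90. The rises are weak: the exon row did not pass with any of 3 libraries left out, E11.5 replicate 2 (adjusted p = 0.053), E11.5 replicate 3 (0.0654) or E13.5 replicate 1 (0.0944), and the 3' UTR row without each library but E13.5 replicate 2 (adjusted p up to 0.228). Relative to each other the exon and 3' UTR rows did not differ, at 0.17 and -0.06 once the intron row was taken out. Genes with called rows in both directions numbered 5 in all (Kcnip1, Zswim8, Akap9, Fgfr2 and the unnamed model Gm32061). Zswim8, part of a ubiquitin ligase that degrades microRNA complexes, had 14.5, 8.97 and 14.3 CPM in an exon row at E13.5, against 3.83, 3.42 and 3.76 CPM at E11.5, and 0.70, 1.16 and 0.38 CPM in an intron row at E13.5, against 7.66, 5.32 and 4.14 CPM at E11.5. The opposed calls of Akap9 and Fgfr2 were lost when single libraries were left out (adjusted p up to 0.192 for Akap9 rows and 0.180 for Fgfr2 rows). Over 158 genes with both kinds of row, the intron row lay below the other rows in 102, with a median difference of -0.56 (quartiles -1.46 and 0.23).

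**Figure D5:**
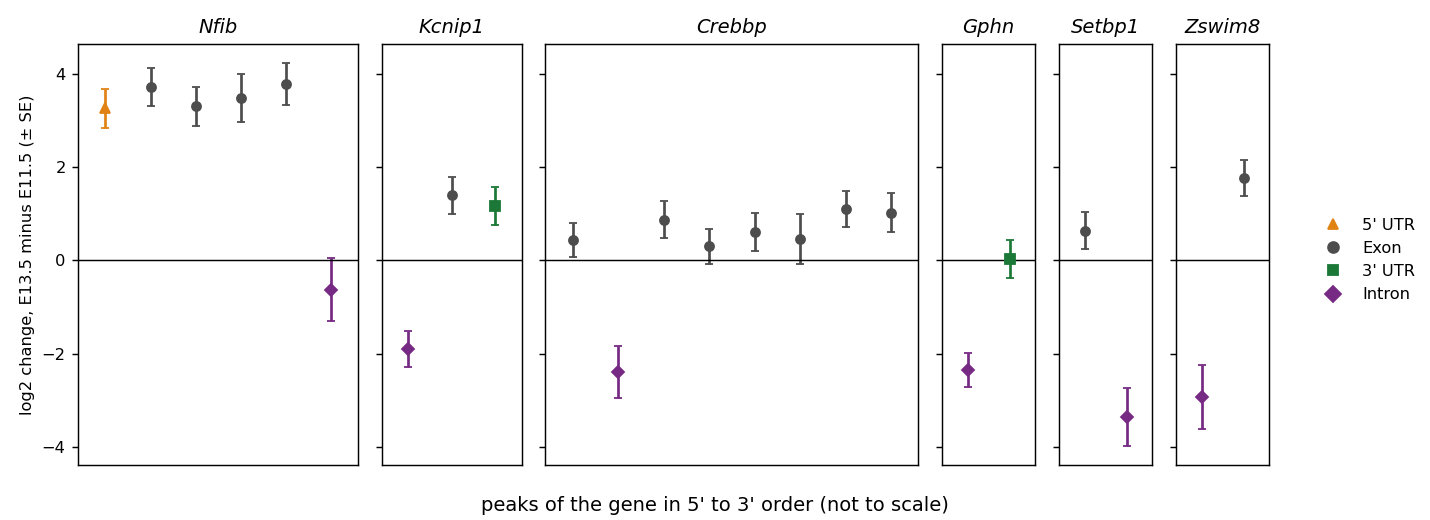
Log2 change, E13.5 minus E11.5, of every tested peak of 6 genes in 5' to 3' order (error bars are SE of the fit over 3 libraries a stage). Exon, 5' UTR and 3' UTR peaks lie at or above 0, and the intron peaks of all 6 genes lie below 0, at -0.63 for Nfib and -1.90 for Kcnip1.

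Fallen rows that were not in introns came with other genes. They were ranked by location among called rows of named genes with non-overlapping libraries and a mean of at least 10 counts at the lower stage. In this ranking the largest falls among 5' UTR rows were of Hmga2, Igf2 and Scd1. Among exon rows they were of Igf1, Fndc3c1 and Crabp1, and among 3' UTR rows of Six2, Hmga2 and Ap1s3. Lin28b, whose only peak is a 3' UTR row, fell more (-6.74 as a gene), but with 14 counts over the E13.5 libraries it was not ranked. Scd1, a fatty acid desaturase, had 1.67, 1.45 and 2.30 CPM in a 5' UTR row at E13.5, against 19.2, 17.1 and 12.4 CPM at E11.5. Fndc3c1 had 1.39, 2.03 and 2.43 CPM at E13.5, against 39.5, 29.6 and 24.8 CPM at E11.5, and Ap1s3, a subunit of a vesicle adaptor complex, had 2.78, 2.46 and 2.94 CPM at E13.5, against 34.2, 28.9 and 46.6 CPM at E11.5. That these groups did not overlap was a condition of the ranking. The log2 changes were -3.15 for Scd1, -3.99 for Fndc3c1 and -3.73 for Ap1s3 (SE between 0.46 and 0.51).

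The sequence under the peaks differed in composition between risers and fallers. It could be read for 5343 tested rows that lie inside a single GENCODE exon (37.9%), in a central window of each peak as long as the shortest peak of the table. The median GC content was 50.3% in 552 higher rows and 44.8% in 413 lower rows, beside 47.6% in all. The order held within exon rows, at 56.6% in higher and 46.9% in lower rows, and within 3' UTR rows, at 49.0% in higher and 43.1% in lower rows. Within 5' UTR rows the medians hardly differed, at 55.2% in 13 higher and 54.5% in 18 lower rows, both below 57.9% in all 175. Of 5' UTR rows over 60% GC, 2 were higher and 7 lower. Among 3' UTR rows of up to 40% GC, 94 were higher and 118 lower, and of those over 50% to 60% GC, 154 were higher and 62 lower. These are descriptions with no test, and GC content can also change how a library records an RNA. Higher rows were also wider, with a median of 405 bases, against 317 in lower rows. STAU2 binds paired RNA, yet the share of bases paired in the predicted fold was alike, at a median of 52.4% in both higher and lower rows and 53.8% in all, and the predicted fold energy was -32.8 kcal/mol in higher rows and -29.5 kcal/mol in lower rows. The Pumilio motif TGTANATA was present in 3.44% of higher and 2.42% of lower rows (2.56% of all), and the AU-rich pentamer ATTTA in 14.7% of higher and 17.2% of lower rows (15.9% of all), searched in the same windows on the strand of the RNA.

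Windows of 4 coding peaks are shown as examples of sequence under called rows. They are 2 for each direction of change, from called rows with a mean of at least 10 counts at the lower stage. The helices were not tested, so the helix is no finding about these rows. The 2 arms of the longest predicted helix are in capitals, the sequences are the strand of the RNA on mm10, and the windows were chosen after their values were seen. Neurod6 and Nfib are from rows that rose, Filip1 and Filip1l from rows that fell.
Neurod6, chr6:55679285-55679429: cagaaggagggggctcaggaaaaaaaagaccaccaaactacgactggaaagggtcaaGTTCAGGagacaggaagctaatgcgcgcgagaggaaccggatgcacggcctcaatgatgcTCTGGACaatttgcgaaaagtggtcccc
Nfib, chr4:82498494-82498638: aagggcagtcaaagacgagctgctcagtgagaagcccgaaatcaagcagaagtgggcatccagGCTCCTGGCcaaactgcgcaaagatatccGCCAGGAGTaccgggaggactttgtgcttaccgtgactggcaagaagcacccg
Filip1, chr9:79818288-79818432: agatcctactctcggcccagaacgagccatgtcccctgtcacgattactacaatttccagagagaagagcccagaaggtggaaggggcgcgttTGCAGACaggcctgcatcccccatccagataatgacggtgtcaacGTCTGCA
Filip1l, chr16:57571894-57572038: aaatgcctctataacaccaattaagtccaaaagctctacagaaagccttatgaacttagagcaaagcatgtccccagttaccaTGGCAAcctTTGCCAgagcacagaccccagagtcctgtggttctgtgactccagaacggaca
The helix has 9 pairs in Nfib, 7 in Neurod6 and Filip1 and 6 in Filip1l. The row of the Nfib window had 2385, 2000 and 1646 counts at E13.5, against 101, 43 and 45 counts at E11.5, and the Filip1 row had 20, 10 and 27 counts at E13.5, against 58, 33 and 69 counts at E11.5. The row of Filip1l changed by -2.59, but did not pass with E11.5 replicate 2 left out (-1.97, adjusted p = 0.0878), with E13.5 replicate 1 left out (adjusted p = 0.0612) or by gene-row totals (-1.40, adjusted p = 0.0708).

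The later stages place the change in sequence, as means over 3 libraries each. Rises at E13.5 followed several courses. Neurod6 stood at 968 CPM at E15.5 and 770 CPM at E17.5, near its E13.5 mean of 753 CPM, and Foxo6 stood at 142 and 144 CPM after 86.0 CPM. Mapt had higher means at each later stage, 157 CPM at E15.5 and 592 CPM at E17.5 after 78.0 CPM at E13.5, and so did Snap25, with 155 and 544 CPM after 74.2 CPM. Gadd45g, Dll3 and Neurod1 instead stood lower at E17.5, at 36.0, 19.4 and 16.23 CPM, than at E13.5, at 93.9, 50.6 and 49.2 CPM. Several fallers had lower means at each later stage: Hmga2 averaged 66.6 CPM at E13.5, 17.2 CPM at E15.5 and 0.53 CPM at E17.5, Igf2 averaged 888, 142 and 23.3 CPM, and Pabpc1 averaged 6232, 3505 and 2406 CPM over the same stages. Dlx2 did not, with 20.4 CPM at E13.5, 50.8 CPM at E15.5 and 106 CPM at E17.5, after 109 CPM at E11.5. Changes after E13.5 were not tested here.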

How the data were processed

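The study made STAU2 immunoprecipitates and inputs from mouse cortex at 4 stages. Per the labels' protocols, RNA was extracted with acid phenol and chloroform, ribosomal RNA was removed, and strand-marking ScriptSeq libraries were made. Per the submitters' processing notes the tools include HOMER 4.10. The authors deposited 1 table of merged peaks with whole-number counts per peak and library and a peak score; neither the aligner nor the counting of shared reads is given in the sources used here. Count columns carry stage and replicate and were read as the immunoprecipitates. The members and gene lists were chosen with earlier results of these data known.

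Intergenic rows (4513) and rows without a symbol (170) were left out. All 12 immunoprecipitate libraries entered one edgeR 4.0.16 quasi-likelihood fit (R 4.3.3, limma 3.58.1) with TMM scaling and edgeR's filter on low counts, and the contrast was E13.5 minus E11.5. Rows were also summed per gene, and each peak was compared with its gene by diffSpliceDGE. P-values were adjusted by Benjamini-Hochberg over all rows or genes tested, with a threshold of 0.05. Counts of 1 to 3 over the libraries of a stage are given as ratios with a 95% exact interval, which covers counting error only. Shares were compared by two-sided exact permutation. Sequences came from GENCODE vM21 transcripts, with folds from ViennaRNA 2.7.2. The fit was tested on simulated data. No label ties a replicate to a litter or pool, so p-values measure the spread between these libraries, which may be technical.

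Named rows were, per location, the 3 largest rises and falls past the threshold with non-overlapping libraries and a mean of at least 10 counts at the lower stage; named genes were up to 4 past the threshold in each list with the smallest p. The 5 genes with the smallest p against their own gene's peaks, the 5 most abundant rows of each stage, genes with calls in both directions, Stau1, Stau2 and Cmss1 were also named, except for results that are not reported here, and Pax6, Lhx2, Sox2, Tbr1, Eomes and Calb2 are checks of the tissue chosen after their values were seen. Alternatives were other scalings, filters, DESeq2 1.42.0, left-out libraries, rows or peaks of low score, and a replicate block.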

Additional observations from a re-analysis of the deposited data

How the results depend on the processing

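The scaling decided the balance of rises and falls. With libraries scaled to their gene-row totals, 8507 rows (8321 higher and 186 lower at E13.5) and 5307 genes passed, 154 intron rows were higher and 33 lower, and 34 lists had more members higher than lower, against 19 otherwise. With the total over all peaks, 8709 rows (98% of them higher) and 5384 genes passed and 163 intron rows were higher and 30 lower. Restricting the table to peaks with a score at or above the median left 1448 rows, 1161 genes, 12 higher and 37 lower intron rows and 7 peaks that differed from their gene, of fewer tested rows. Without rows called intron, 6 peaks differed from their gene. Leaving out each library in turn gave 1528 to 1941 rows, 1396 to 1624 genes, 16 to 29 peaks against their gene, 56 to 86 lower intron rows and a difference in intron share of -31.07 to -27.21 percentage points. Without replicate 2 of both stages, chosen after the data were seen, 1491 rows passed and 15 peaks differed from their gene, and the list counts fell by over 1.5 times for mitotic and replication genes (11 lower, against 17), Sox, Pou, Lhx and Fox factors (3 higher, against 8), collagens and laminins (1 higher, against 4) and Zfp genes (7 lower, against 14), among others. DESeq2 called 2878 rows.

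With the replicate number as a block, 2905 rows and 2150 genes passed, 41 intron rows were higher and 105 lower, and 43 peaks differed from their gene. Same-numbered libraries deviated together only weakly (correlations 0.085, 0.233 and 0.186), while differently numbered ones had correlations of -0.367 to 0.218. These values do not settle whether the numbers are pairs, since in intron rows replicate 2 was mostly the highest at both stages. No label ties the numbers across stages, and the main fit took them as unpaired.

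The Kcnip1 3' UTR row stood at -0.06287 against its gene without intron rows and at -0.06204 without the 10 highest rows, since its intron row then left the comparison. The sign of Stau1 turned to -0.108 and that of Stau2 to -0.003316 with peaks of higher score, and leaving out single libraries gave -0.08967 to 0.183 for Stau1 and -0.182 to 0.2055 for Stau2. By gene-row totals they stood at 1.241 and 1.201 and by the total over all peaks at 1.291 and 1.25, for Stau1 and Stau2 in that order, and passed (adjusted p of 0.00115 to 0.00155); the cause was not tested. Low counts at E11.5, a median of 29 to 37 per row, limit what can be detected among scarce RNAs.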
